A study of Mus musculus with 12 samples.

Results

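Wnt signalling was examined through 41 genes, which are the Wnt ligand and Frizzled receptor genes together with 12 other genes of the pathway. The members were chosen by symbol from the 34677 genes of the deposited expression table. They comprise 19 ligands, 10 Frizzled receptors, the co-receptors Lrp5 and Lrp6, and the R-spondin gene Rspo1 and its receptor Lgr5. Further members are Dkk3 of the Dickkopf family and the antagonists Kremen1 and Sfrp1. The rest are the nuclear effectors Ctnnb1, Lef1, Tcf7l1 and Tcf7l2, and the target gene Axin2. All 41 had estimated counts. RNA was sequenced from cortical and medullary thymic epithelial cells (cTEC and mTEC) of wild-type (WT) C57BL/6 mice and of Aβ0/0 mice (AB0 in the labels), in which disruption of H2-Ab1, the gene of the MHC class II β chain, removes MHC class II. Each of the 4 groups had 3 libraries, and each library came from a pool of 5 to 10 mice aged 4 to 6 weeks. Both subsets were sorted as Epcam+ CD45- cells, cTEC by Ly51 and mTEC by binding of the lectin UEA1. The deletion is carried by all cells of the animal, so that a difference between genotypes in TEC cannot be told apart from an effect of the other cells of the thymus.

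Wnt ligands are secreted lipid-modified glycoproteins that bind Frizzled receptors together with Lrp5 or Lrp6. In the canonical branch this stabilises β-catenin, the product of Ctnnb1, which enters the nucleus and activates genes such as Axin2 with factors of the TCF/LEF family. In the thymus Wnt ligands are known to be made by epithelial cells, to act on thymocytes as well as on the epithelium, and Wnt4 is linked to expression of Foxn1, the master regulator of TEC.

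Between 21710319 and 36139815 estimated counts were available per library. H2-Ab1 RNA was present in Aβ0/0 libraries, each of which lay below each WT library of its subset, at 1952 to 3767 CPM (counts-per-million of the library, scaled with the TMM method) in mTEC against 8836 to 11066 in WT, and at 2219 to 3655 CPM in cTEC against 6626 to 9626. The 4 epithelial markers were detected in every library, cTEC markers summed to 8857 to 22696 CPM in cTEC and 653 to 1522 CPM in mTEC, and 8 markers of mature mTEC summed to 671 to 2048 CPM in mTEC and 46.4 to 89.0 CPM in cTEC. The 19 thymocyte markers, of which none was at 0 in a group, summed to 493 to 1633 CPM in cTEC and 104 to 320 CPM in mTEC. The 12 fibroblast markers summed to 2453 to 3309 CPM in cTEC and 266 to 585 CPM in mTEC, and Dcn alone held 2131 to 2853 CPM of the cTEC sums. In bulk samples fewer cells of a type and less RNA per cell cannot be told apart.

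Levels between genes are given in transcripts-per-million (TPM), which are corrected for transcript length. Averaged over all 12 libraries, Ctnnb1 was the highest member at 253 TPM, followed by Wnt4 at 92.8 TPM, Sfrp1 at 67.3 TPM, Tcf7l2 at 34.4 TPM and Lrp6 at 32.4 TPM. The order differed by subset. In mTEC the mean of Sfrp1 was above that of Wnt4, at 75.7 against 46.7 TPM in WT and 116 against 70.7 TPM in Aβ0/0. Wnt4 was the most abundant ligand, and it made up 51.3% to 76.5% of the summed ligand TPM in cTEC libraries, 27.1% to 40.04% in WT mTEC and 49.7% to 61.3% in Aβ0/0 mTEC. Wnt10a made up 20.7% to 25.4% of the ligand TPM in WT mTEC and 18.98% to 24.6% in Aβ0/0 mTEC, against 1.39% to 4.21% in cTEC.

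Detection separated WT mTEC from the other groups. With at least 5 counts as the criterion, 39 to 41 of the 41 members were detected in WT mTEC libraries, against 31 to 32 in WT cTEC, 27 to 30 in Aβ0/0 cTEC and 27 to 30 in Aβ0/0 mTEC. The ligands carried this difference, as 18 to 19 of 19 were detected in WT mTEC and 7 to 12 in the other libraries, while the Frizzled receptors ranged from 8 to 10 of 10 throughout. The whole transcriptome moved in the same direction, with 20786 to 20863 genes detected in WT mTEC and 15228 to 17798 in the other libraries. Mature mTEC are known to transcribe many genes that are otherwise restricted to other tissues, in part through Aire, which was at 981, 520.0 and 439.5 CPM in WT mTEC and at 185, 118 and 129 CPM in Aβ0/0 mTEC. The part of these in the ligand counts was not tested.

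**Figure D1:**
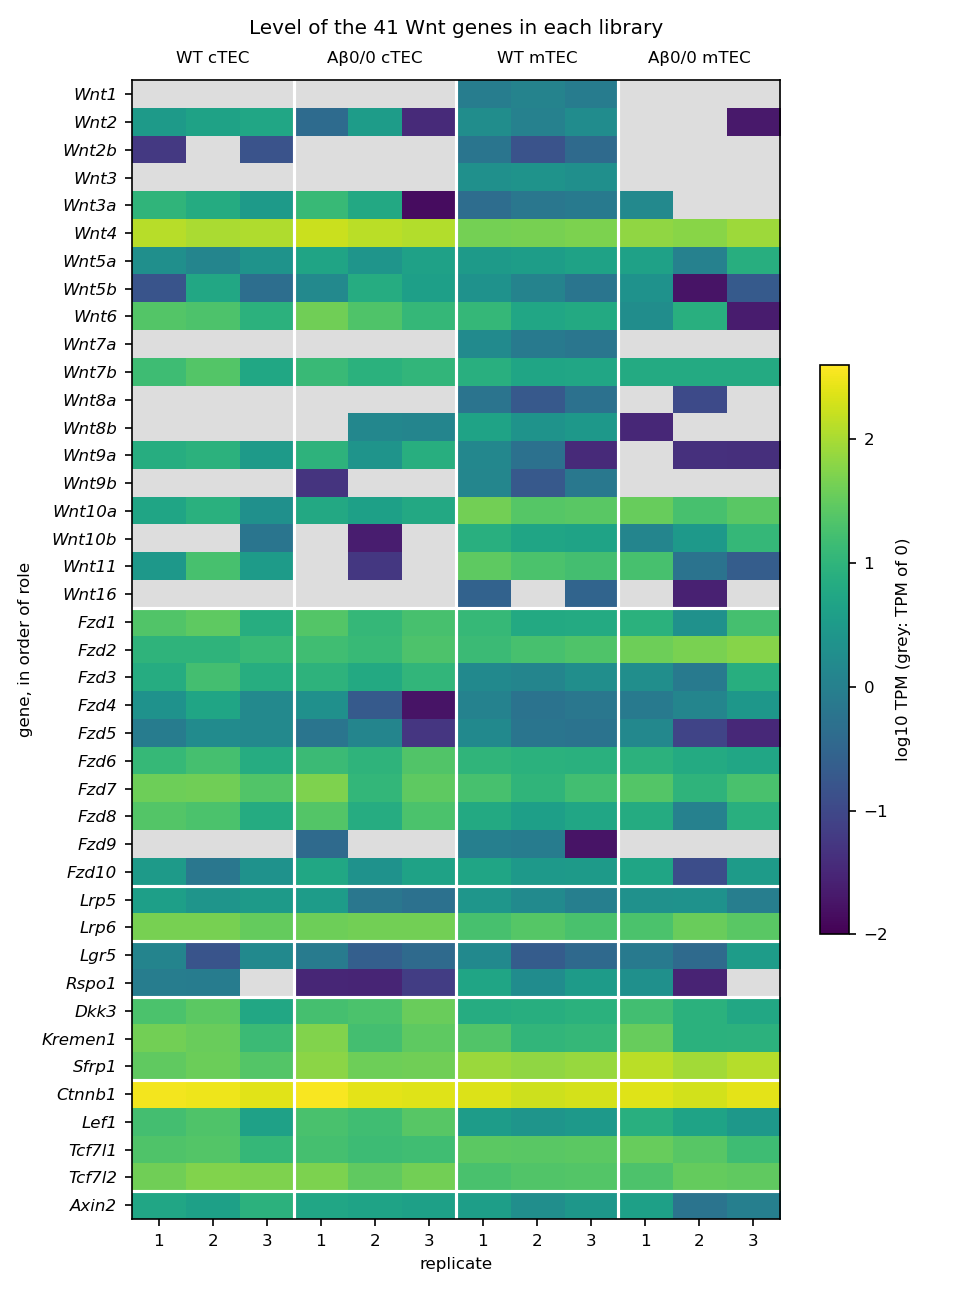
Level of each of the 41 genes (rows, in order of role: ligands, Frizzled receptors, co-receptors, R-spondin module, Dkk3 and the antagonists, factors, target) in each of the 12 libraries (columns, replicates 1 to 3 of each group) as log10 TPM, with grey for a TPM of 0. Ctnnb1 and Wnt4 are high throughout, and most ligand rows that are grey elsewhere are filled in the 3 WT mTEC columns.

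The first comparison asked which Wnt genes distinguish mTEC from cTEC in WT mice. In mTEC 6 of 19 ligands and the antagonist Sfrp1 were higher, while 4 ligands, 4 Frizzled receptors, Lrp6, Lef1 and Tcf7l2 were higher in cTEC. In edgeR's quasi-likelihood test, 18 of the 38 members tested had an adjusted p under 0.05, 7 higher in mTEC and 11 higher in cTEC. Over all genes tested 26.8% passed, 18.0% in the direction of mTEC and 8.81% in that of cTEC. The 3 libraries of the subsets did not overlap in 24 of the 38 members, beside 47.0% of all genes. The median log2 fold change of mTEC over cTEC was -1.05 over the 9 Frizzled genes tested and -0.68 over the 12 other members, beside 0.06 over all genes tested. No median is given for the ligands in any comparison, because 5 of the 17 tested here had no count in WT cTEC and passed the filter on low counts through WT mTEC alone.

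Among the ligands higher in mTEC, Wnt10a, a canonical ligand known from hair, tooth and skin, was detected in both subsets. Its levels were 68.0, 49.8 and 50.5 CPM in WT mTEC and 8.13, 13.7 and 4.71 CPM in WT cTEC. The groups did not overlap, and the log2 fold change was 2.70 ± 0.40 (SE, adjusted p = 0.003, edgeR).

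The other 5 ligands higher in mTEC, Wnt1, Wnt3, Wnt7a, Wnt8b and Wnt9b, had no count in any WT cTEC library. Wnt1, known for its role in the midbrain, had 34, 75 and 51 counts in the WT mTEC libraries, Wnt3, which acts in the intestinal crypt and the early embryo, had 101, 195 and 156, and Wnt7a, a ligand of the limb and the female reproductive tract, had 82, 67 and 46. All 3 were at 0 in each of the 9 libraries outside WT mTEC. Wnt8b, known from the forebrain, had 260, 219 and 246 counts in WT mTEC, and Wnt9b, a ligand of the developing kidney, had 97, 24 and 80. Against a floor of 3 counts per library, the mean CPM of WT mTEC was at least 15.7-fold higher than in WT cTEC for Wnt1, 44.5-fold for Wnt3, 20.5-fold for Wnt7a, 74.9-fold for Wnt8b and 21.7-fold for Wnt9b. Their adjusted p-values ranged from 0.00202 for Wnt8b to 0.00879 for Wnt9b (edgeR). These genes passed the filter on low counts through the WT mTEC libraries alone, so that their number is no measure of how often ligands differ. All were low in mTEC, with a mean of 0.726 to 3.30 TPM. Marker sums of other cells also lay higher in each WT mTEC library than in any WT cTEC library, those of dendritic cells, macrophages and B cells at 608 to 670 CPM against 85.3 to 335 CPM and those of tuft cells at 309.9 to 674 CPM against 30.8 to 174 CPM in sum. Their part in the ligand differences was not tested.

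The sequences upstream of these 5 genes are shown because the genes shared detection in WT mTEC and absence from WT cTEC. Over the 4 groups their patterns differed, as Wnt8b had 0, 124 and 108 counts and Wnt9b 4, 0 and 0 in Aβ0/0 cTEC. Each run ends at the last base before the annotated gene and is taken from the RefSeq promoter table (GRCm38.p6), 5′ to 3′ on the strand of the gene, with CG dinucleotides in capitals. Wnt1 is on the plus strand at chr15:98789607-98789856, Wnt3 on the plus strand at chr11:103773925-103774149, Wnt7a on the minus strand at chr6:91411364-91411603, Wnt8b on the plus strand at chr19:44493222-44493471 and Wnt9b on the minus strand at chr11:103749822-103750071.
Wnt1: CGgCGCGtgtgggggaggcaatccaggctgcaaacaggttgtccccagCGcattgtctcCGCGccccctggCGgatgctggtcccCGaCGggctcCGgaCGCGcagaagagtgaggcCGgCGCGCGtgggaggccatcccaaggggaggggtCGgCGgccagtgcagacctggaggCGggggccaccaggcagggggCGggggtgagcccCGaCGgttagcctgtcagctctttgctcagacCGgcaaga
Wnt3: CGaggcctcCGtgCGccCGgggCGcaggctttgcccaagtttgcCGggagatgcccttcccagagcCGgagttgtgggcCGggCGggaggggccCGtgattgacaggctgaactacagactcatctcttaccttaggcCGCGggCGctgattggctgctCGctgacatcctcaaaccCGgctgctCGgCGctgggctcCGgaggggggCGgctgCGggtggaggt
Wnt7a: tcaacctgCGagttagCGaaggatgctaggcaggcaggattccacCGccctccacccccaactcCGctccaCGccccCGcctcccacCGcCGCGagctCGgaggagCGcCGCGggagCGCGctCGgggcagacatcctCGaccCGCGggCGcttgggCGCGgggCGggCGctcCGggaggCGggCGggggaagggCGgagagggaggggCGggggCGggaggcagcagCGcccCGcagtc
Wnt8b: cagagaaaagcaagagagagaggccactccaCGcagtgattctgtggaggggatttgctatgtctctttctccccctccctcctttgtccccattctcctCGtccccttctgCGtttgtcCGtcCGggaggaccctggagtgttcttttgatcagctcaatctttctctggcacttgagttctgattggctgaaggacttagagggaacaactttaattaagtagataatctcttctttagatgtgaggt
Wnt9b: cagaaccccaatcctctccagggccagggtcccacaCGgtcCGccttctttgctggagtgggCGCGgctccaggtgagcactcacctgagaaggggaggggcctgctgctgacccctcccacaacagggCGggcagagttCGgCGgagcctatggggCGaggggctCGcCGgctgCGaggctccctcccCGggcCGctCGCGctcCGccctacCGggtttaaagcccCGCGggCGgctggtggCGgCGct
In the 250 bases before the RefSeq start, Wnt7a held 34 CG dinucleotides, Wnt1 23, Wnt3 22 and Wnt9b 22, against a median of 6 and an upper quartile of 16 over the 32851 promoters of the table, whereas Wnt8b held 5. This richness was not particular to these genes, since promoters of ligands higher in cTEC also lay above the upper quartile, with 48 in Wnt9a, 44 in Wnt4, 41 in Wnt3a and 28 in Wnt6. Wnt3 and Wnt7a are printed without the last 25 and 10 of these bases, which GENCODE places inside the gene. The letters CTTTGAA or CTTTGAT, a form of the TCF/LEF motif searched on both strands, were in none of the 5 windows. They were in 7.48% of all promoters and in 2 of the 35 promoters of the 27 members listed, those of Wnt5b and Wnt11.

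Wnt4 led the ligands higher in cTEC. WT cTEC held 351, 289.5 and 448 CPM and WT mTEC held 126, 161 and 168 CPM, with no overlap and a log2 fold change of -1.24 ± 0.26 (SE, adjusted p = 0.00974, edgeR). Wnt3a, a canonical ligand of the embryonic axis, was at 18.7, 12.3 and 8.08 CPM in WT cTEC and at 0.835, 1.52 and 1.65 CPM in WT mTEC, a difference of -3.25 ± 0.57 on the log2 scale (SE, adjusted p = 0.00562, edgeR). The groups did not overlap. Wnt9a was at 15.7, 19.7 and 9.91 CPM in WT cTEC and at 3.01, 1.40 and 0.0933 CPM in WT mTEC (log2 fold change -3.30 ± 1.01, adjusted p = 0.0452). Wnt6, a ligand of many epithelia, was at 23.3, 24.3 and 17.1 CPM in WT cTEC and at 12.7, 7.82 and 9.24 CPM in WT mTEC (log2 fold change -1.09 ± 0.34, adjusted p = 0.0464). Neither pair of groups overlapped.

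The ligand genes include 4 pairs of genomic neighbours. Wnt3a and Wnt9a, 16.2 kb apart on chromosome 11, were both higher in cTEC. Wnt9b and Wnt3, 24.3 kb apart on the same chromosome, were both higher in mTEC. Wnt6 and Wnt10a, only 6.19 kb apart on chromosome 1, moved in opposite directions. Wnt10b lies 11.7 kb from Wnt1 on chromosome 15 and was at 10.4, 8.93 and 7.84 CPM in WT mTEC, against 0.88 CPM in replicate 3 and no count in replicates 1 and 2 of WT cTEC (adjusted p = 0.0547).

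The 4 Frizzled receptors and Lrp6 that passed the test were all higher in cTEC. The summed CPM of the 12 fibroblast markers was also higher in cTEC, at 2650 to 3309 in WT cTEC and 266 to 364 in WT mTEC. Dcn made up most of the cTEC sums, so that the sum does not speak for the other markers. The part of fibroblast RNA in these differences was not tested. Fzd3, a receptor best known for planar polarity and axon guidance, differed most, with 60.6, 85.5 and 90.2 CPM in WT cTEC and 13.3, 13.6 and 19.8 CPM in WT mTEC. Its log2 fold change was -2.32 ± 0.28 (SE, adjusted p = 0.00137, edgeR) and the groups did not overlap. Fzd7, the Frizzled with the highest mean TPM over all libraries, was at 116, 120.4 and 95.3 CPM in WT cTEC and at 57.1, 39.4 and 60.0 CPM in WT mTEC (log2 fold change -1.05 ± 0.23, adjusted p = 0.0111). Fzd8 differed by -1.53 ± 0.36 (adjusted p = 0.0155) and Fzd4, the receptor of Norrin as well as of Wnt ligands, by -1.81 ± 0.52 on the log2 scale (adjusted p = 0.0359). For Fzd8 the WT cTEC libraries held 52.1, 43.6 and 21.1 CPM and the WT mTEC libraries 14.4, 10.7 and 14.2 CPM. For Fzd4 they held 10.1, 23.5 and 9.34 CPM and 5.18, 3.19 and 3.58 CPM. Again neither pair of groups overlapped. Lrp6 was at 101, 132 and 125 CPM in WT cTEC and at 48.0, 55.9 and 45.4 CPM in WT mTEC (log2 fold change -1.24 ± 0.21, adjusted p = 0.00477), while its homologue Lrp5 stood at 10.5 to 14.8 CPM in WT cTEC and 6.87 to 10.7 CPM in WT mTEC and did not pass (adjusted p = 0.461).

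Sfrp1, a secreted protein that binds Wnt ligands and Frizzled receptors and is mostly an inhibitor, went the other way. Levels were 244, 248 and 273 CPM in WT mTEC and 88.2, 107 and 94.6 CPM in WT cTEC, with a narrow spread in both and a log2 fold change of 1.42 ± 0.20 (SE, adjusted p = 0.00241, edgeR). Dkk3 did not pass, with 17.9 to 61.0 CPM in WT cTEC and 16.4 to 23.5 CPM in WT mTEC (adjusted p = 0.13, edgeR). Kremen1, the receptor of Dickkopf proteins, did not pass either, with 63.3 to 132 CPM and 42.5 to 75.4 CPM (adjusted p = 0.0883, edgeR).

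Of the nuclear effectors, Tcf7l2 was at 68.5, 90.0 and 93.3 CPM in WT cTEC and at 28.2, 39.8 and 42.2 CPM in WT mTEC (log2 fold change -1.17 ± 0.25, adjusted p = 0.0101, edgeR). Lef1 was at 30.5, 33.1 and 11.9 CPM in WT cTEC and at 6.76, 7.11 and 8.40 CPM in WT mTEC (log2 fold change -1.72 ± 0.42, adjusted p = 0.0189). The groups were apart for both. Lef1 is also expressed by thymocytes. The thymocyte marker Lck was at 139, 114 and 76.5 CPM in WT cTEC and at 24.7, 36.5 and 44.9 CPM in WT mTEC. The part of thymocyte RNA in the Lef1 difference was not tested. Lef1 shares 1208 exon bases with Gm43352 on the opposite strand, and the library kit does not mark strand.

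Ctnnb1 itself was at 585, 566 and 312 CPM in WT cTEC and at 415, 316 and 364 CPM in WT mTEC, with overlapping groups (log2 fold change -0.38 ± 0.28, adjusted p = 0.367, edgeR). Tcf7l1, a factor that mostly represses, was at 31.5 to 38.8 CPM in WT cTEC and at 37.6 to 45.1 CPM in WT mTEC (adjusted p = 0.328). Axin2, the usual readout of canonical signalling, was at 8.38, 8.15 and 16.6 CPM in WT cTEC and at 6.22, 3.58 and 4.88 CPM in WT mTEC, and did not pass the test (log2 fold change -1.17 ± 0.52, adjusted p = 0.144) although the groups did not overlap.

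Some calls in this comparison rested on single libraries. Leaving out 1 of the 6 libraries in turn, the call of Wnt6 was kept only without replicate 3 of WT cTEC, that of Wnt9a only without replicate 3 of either subset, that of Fzd4 only without replicate 1 or 3 of WT cTEC, those of Fzd8 and Lef1 only without replicate 2 or 3 of WT cTEC, and that of Fzd7 was lost without replicate 2 of WT mTEC, while the other 12 calls were kept in all 6 fits. A fit on all 12 libraries ended the calls of Wnt3a (adjusted p = 0.324), Wnt6, Wnt9a, Fzd4, Fzd7 and Fzd8. With limma on the log2 values 9 of the 18 calls were lost, those of Wnt6, Wnt9a, Fzd4, Fzd7, Fzd8 and Lef1 and also those of Wnt9b, Lrp6 and Tcf7l2 (adjusted p = 0.148, 0.0549 and 0.115). Both subsets of a replicate came from the same mice, and with the replicate as a block Wnt6, Fzd4 and Lef1 no longer passed (adjusted p = 0.0788, 0.0956 and 0.0558).

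The same comparison in Aβ0/0 mice gave fewer calls. Wnt10a, Wnt10b, Fzd2 and Sfrp1 were higher in mTEC and Wnt9a was higher in cTEC, so that 5 of the 29 members tested passed, beside 5.6% of all genes tested (3.45% in the direction of mTEC and 2.15% in that of cTEC). Groups did not overlap in 14 of the 29, beside 28.1% of all genes. Wnt10b and Wnt9a, near 0 in the other subset, passed the filter on low counts only through the subset where they were high, so that the count of 5 is no measure of how often members differ. The median log2 fold change was -0.71 over the 9 Frizzled genes and -0.21 over the 11 other members tested, beside 0.03 over all genes.

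Wnt10a and Sfrp1, higher in mTEC, and Wnt9a, higher in cTEC, were thus called in mice of both genotypes, tested in separate libraries. Wnt10a was at 58.5, 43.2 and 53.6 CPM in Aβ0/0 mTEC and at 8.97, 8.33 and 8.66 CPM in Aβ0/0 cTEC (log2 fold change 2.59 ± 0.38, adjusted p = 0.0105, edgeR). Sfrp1 was at 426, 393 and 442 CPM in Aβ0/0 mTEC and at 177, 139 and 126 CPM in Aβ0/0 cTEC (log2 fold change 1.52 ± 0.23, adjusted p = 0.0119). Neither gene had overlapping groups. For Wnt10a and Sfrp1 the difference in Aβ0/0 was within 1 SE of that in WT.

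Fzd2, a receptor of canonical and of Wnt5a signalling, was at 99.6, 165 and 176 CPM in Aβ0/0 mTEC and at 35.8, 38.0 and 53.6 CPM in Aβ0/0 cTEC (log2 fold change 1.80 ± 0.32, adjusted p = 0.0209, edgeR). In WT the same gene did not pass, with 33.8, 54.8 and 63.4 CPM in mTEC and 23.3, 24.4 and 42.5 CPM in cTEC (log2 fold change 0.76 ± 0.35, adjusted p = 0.16). Fzd2 held 40.2% to 68.3% of the summed Frizzled TPM in Aβ0/0 mTEC and 19.1% to 33.9% in WT mTEC, while Fzd7 held 14.3% to 24.4% and 19.5% to 25.9%.

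Wnt10b, a canonical ligand known from bone and T cells, had 39, 175 and 564 counts in Aβ0/0 mTEC and a single count over the 3 Aβ0/0 cTEC libraries (adjusted p = 0.0371, edgeR). The ratio was 947 with a 95% interval for counting error from 170 to 37463. Wnt9a had 564, 223 and 658 counts in Aβ0/0 cTEC and 0, 4 and 3 in Aβ0/0 mTEC, a log2 fold change of -7.37 ± 1.46 (SE, adjusted p = 0.0312, edgeR). With the replicate as a block neither passed (adjusted p = 0.0791 for Wnt10b and 0.0948 for Wnt9a), and the number of members called fell to 3.

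The number called moved with single libraries. It was 2 without replicate 1 or 2 of Aβ0/0 cTEC or replicate 2 of Aβ0/0 mTEC, 1 without replicate 3 of either subset, and 5 without replicate 1 of Aβ0/0 mTEC. Wnt10a was called in all 6 of these fits and Sfrp1 in 4, whereas Fzd2, Wnt9a and Wnt10b were called only in the last.

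Several genes called in WT had Aβ0/0 values that did not pass, among them Wnt4 with 206, 242 and 294 CPM in mTEC and 445, 458 and 360.0 CPM in cTEC (log2 fold change -0.76 ± 0.24, adjusted p = 0.124, edgeR) and Fzd3 with 17.8, 9.58 and 35.1 CPM and 57.7, 67.5 and 70.9 CPM (log2 fold change -1.65 ± 0.49, adjusted p = 0.111). The groups were apart in both. Fzd4 had the opposite sign in Aβ0/0, with 3.72, 8.23 and 15.6 CPM in mTEC and 8.83, 1.13 and 0.0841 CPM in cTEC, and overlapping groups (log2 fold change 1.46, adjusted p = 0.692, edgeR). For Wnt3a and Wnt6 single libraries stood out, with 21.7, 13.8 and 0.028 CPM of Wnt3a in Aβ0/0 cTEC and 2.61, 13.1 and 0.0378 CPM of Wnt6 in Aβ0/0 mTEC.

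**Figure D2:**
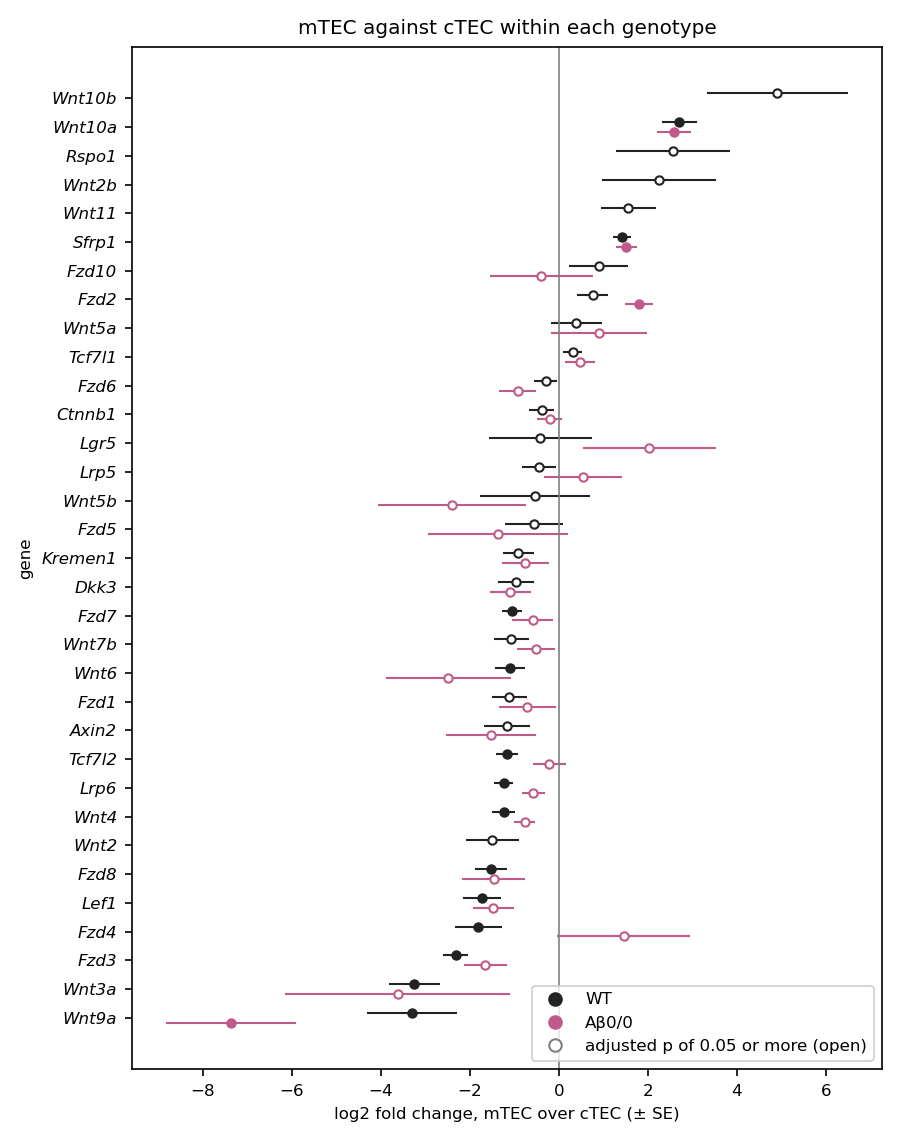
Log2 fold change of mTEC over cTEC with its SE from edgeR, for WT (black) and Aβ0/0 (pink), filled where the adjusted p was under 0.05 and open otherwise, leaving out genes for which a group had at most 3 counts in all. Wnt10a and Sfrp1 are filled to the right of 0 in both genotypes, and the black points of the Frizzled receptors called in WT lie to the left, while the open pink point of Fzd4 lies to the right at 1.46.

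The third comparison asked which Wnt genes differed between genotypes in mTEC. Among the ligands 7 of 19 (Wnt1, Wnt2, Wnt2b, Wnt3, Wnt7a, Wnt8b and Wnt9b) were lower in Aβ0/0 mTEC, where they were at or near 0, while Sfrp1 and Fzd2 were higher there. In edgeR's test 9 of 37 members passed, 7 higher in WT and 2 higher in Aβ0/0. Among all genes 5.66% passed, 5.32% higher in WT and 0.338% higher in Aβ0/0. Groups did not overlap in 12 of the 37, beside 26.6% of all genes. The comparison shares its WT mTEC libraries with that of the subsets in WT.

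Wnt1, Wnt3, Wnt7a, Wnt9b and Wnt2b had no count in any Aβ0/0 mTEC library. Against the floor of 3 counts per library, WT mTEC was at least 15.6-fold higher for Wnt1, 44.2-fold for Wnt3, 20.4-fold for Wnt7a, 21.5-fold for Wnt9b and 8.38-fold for Wnt2b. Wnt2b, a ligand of the intestinal and pulmonary mesenchyme, had 33, 14 and 33 counts in WT mTEC. Wnt8b had 2 counts in replicate 1 of Aβ0/0 mTEC and none in replicates 2 and 3, a ratio of WT over Aβ0/0 of 325 with a 95% counting interval from 89.7 to 2691. Wnt2, known from lung development and liver endothelium, had 66, 65 and 98 counts in WT mTEC and 0, 0 and 1 in Aβ0/0 mTEC, a ratio of 206 (95% counting interval 36.5 to 8152). It was not restricted to WT mTEC, with 111, 213 and 279 counts in WT cTEC. The adjusted p-values of these 7 ligands lay between 0.0352 and 0.0447 (edgeR). As above, these genes passed the filter on low counts through the WT libraries.

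**Figure D3:**
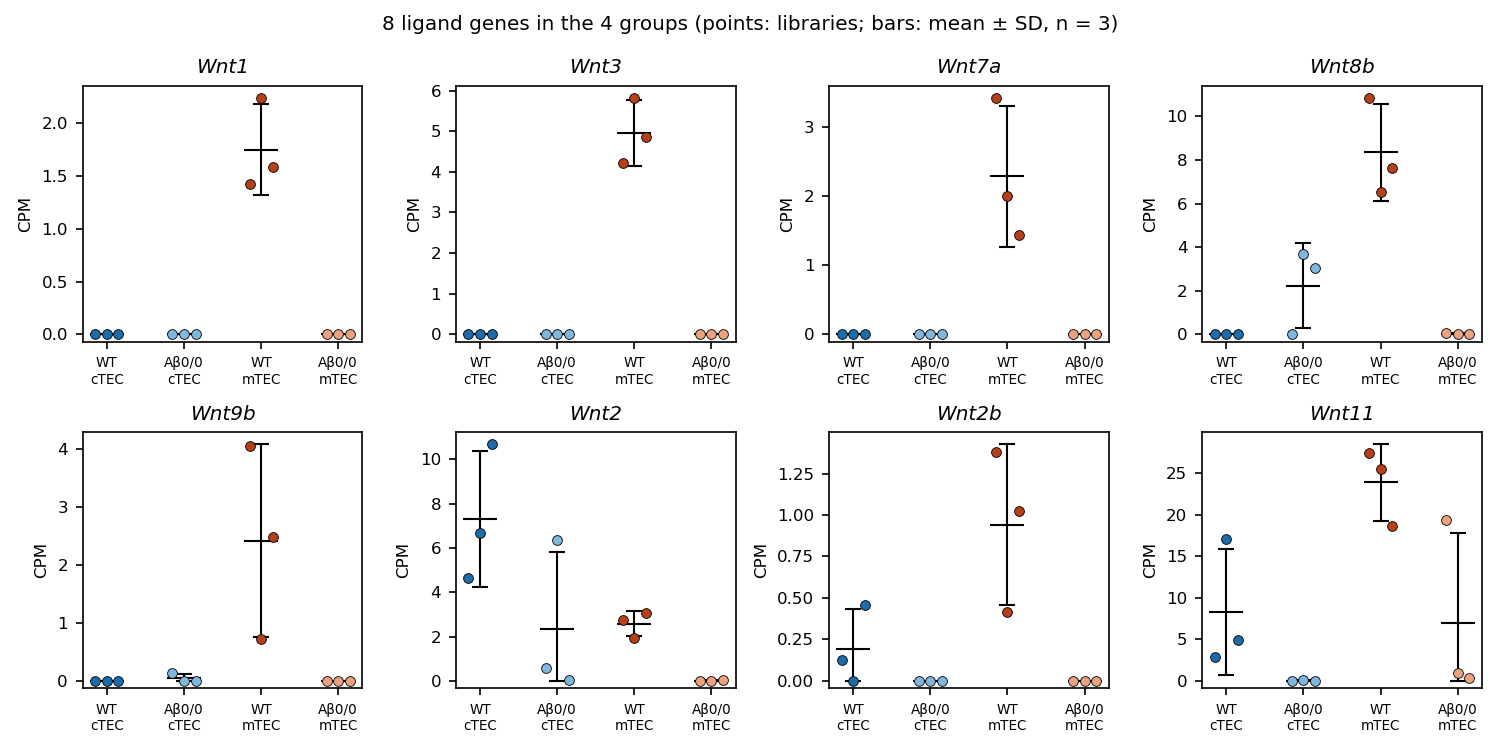
CPM of 8 ligand genes in each library (points) with the mean and SD of each group (n = 3, lower bars stop at 0). Wnt1, Wnt3 and Wnt7a have points above 0 only in WT mTEC, Wnt8b also reaches 3.03 and 3.69 CPM in 2 Aβ0/0 cTEC libraries, and Wnt11 is near 0 in all 3 Aβ0/0 cTEC libraries and in 2 of 3 Aβ0/0 mTEC libraries.

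Sfrp1 was at 426, 393 and 442 CPM in Aβ0/0 mTEC against 244, 248 and 273 CPM in WT mTEC. The log2 fold change of WT over Aβ0/0 was -0.72 ± 0.15 (SE, adjusted p = 0.0408, edgeR) and every Aβ0/0 library lay above every WT library. Fzd2 was at 99.6, 165 and 176 CPM against 33.8, 54.8 and 63.4 CPM, a log2 fold change of -1.53 ± 0.32 (SE, adjusted p = 0.0414, edgeR), again without overlap. Wnt4, at 206, 242 and 294 CPM in Aβ0/0 mTEC and 126, 161 and 168 CPM in WT mTEC, had groups apart but did not pass (log2 fold change -0.70 ± 0.20, adjusted p = 0.133).

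**Figure D4:**
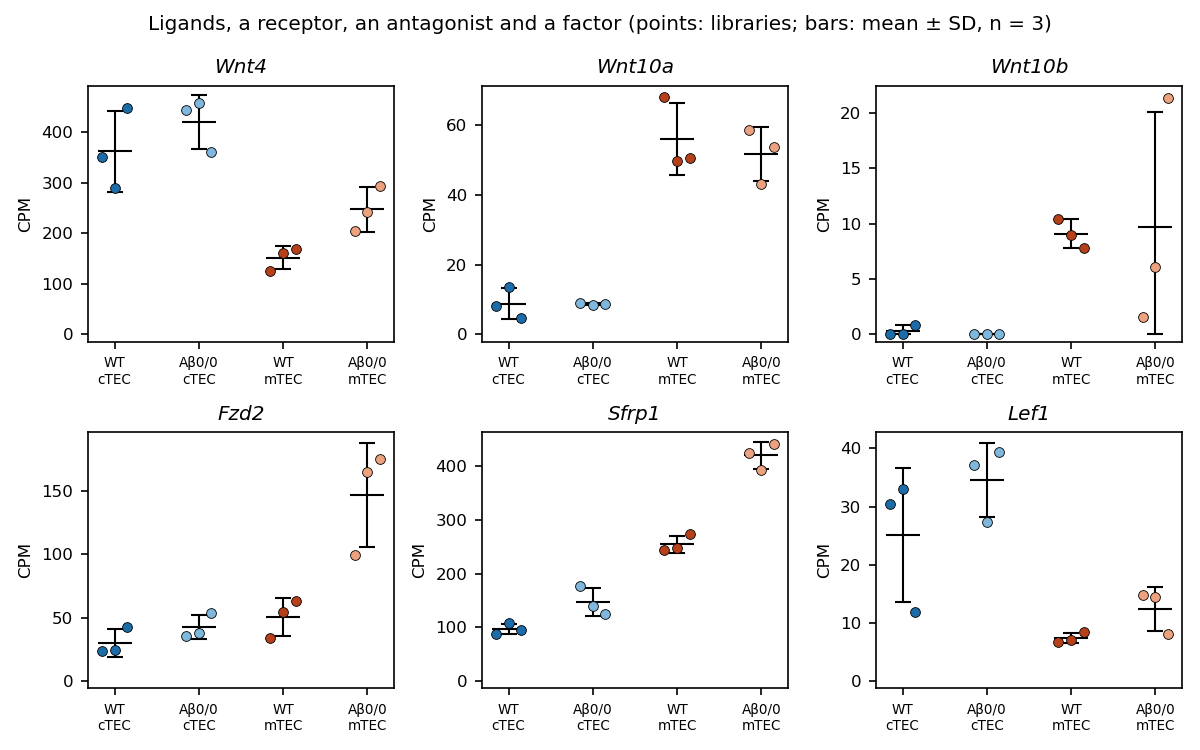
CPM of Wnt4, Wnt10a, Wnt10b, Fzd2, Sfrp1 and Lef1 in each library (points) with the mean and SD of each group (n = 3, lower bars stop at 0). Sfrp1 and Fzd2 are highest in the 3 Aβ0/0 mTEC libraries, at 393 to 442 CPM and 99.6 to 176 CPM.

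The calls between genotypes in mTEC stood close to the threshold. None of the 9 was kept without a filter on low counts, with a filter at a mean of 10 counts, in a fit on all 12 libraries, with the replicate number as a block, or without any 1 of the 3 WT mTEC libraries or of replicates 2 and 3 of Aβ0/0 mTEC, where the number of members called was 0. With the block the adjusted p was 0.137 for Fzd2 and 0.230 for each of the other 8. With limma on the log2 values 5 were kept, and the calls of Wnt2b, Wnt7a, Wnt9b and Fzd2 were lost. All 9 were kept with another scaling (RLE), with DESeq2 and without replicate 1 of Aβ0/0 mTEC, and over all 13 alternatives their adjusted p-values ranged from 1.38e-10 to 0.298.

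Marker sums also moved with the genotype in mTEC. The 8 markers of mature mTEC summed to 1313 to 2048 CPM in WT and 671 to 903 CPM in Aβ0/0, and the 7 markers of immature mTEC to 11186 to 16193 CPM in WT and 15647 to 27969 CPM in Aβ0/0. The 12 markers of dendritic cells, macrophages and B cells summed to 608 to 670 CPM in WT and 127 to 673 CPM in Aβ0/0, where Itgax and Adgre1 were at 0. The 10 markers of endothelium summed to 61.2 to 94.2 CPM in WT and 26.5 to 66.4 CPM in Aβ0/0, where Emcn was at 0. Their part in the ligand, Sfrp1 and Fzd2 differences was not tested.

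In mTEC 28 members were tested between genotypes and not called. Wnt11, a ligand of noncanonical signalling, was at 27.5, 25.6 and 18.7 CPM in WT mTEC and at 19.5, 0.976 and 0.341 CPM in Aβ0/0 mTEC, so that 1 Aβ0/0 library reached the WT range (adjusted p = 0.637, edgeR). Wnt10a, at 49.8 to 68.0 CPM in WT and 43.2 to 58.5 CPM in Aβ0/0, had overlapping groups and a log2 fold change of 0.12 ± 0.24 (adjusted p = 0.893). The abundant members Ctnnb1, Tcf7l2 and Lrp6 had log2 fold changes of -0.24 ± 0.21, -0.74 ± 0.37 and -0.38 ± 0.19, with adjusted p-values from 0.424 to 0.711. Wnt9a, Wnt8a, Wnt16 and Fzd9 had too few counts to be tested. Wnt9a had 72, 47 and 3 counts in WT mTEC and 0, 4 and 3 in Aβ0/0 mTEC.

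In cTEC no member passed the test between genotypes. In edgeR's test 0 of 30 members passed, beside 0.0194% of all genes tested, 1 member had an unadjusted p under 0.05, and DESeq2 called 1. That member was Wnt11, at 2.93, 17.1 and 4.90 CPM in WT cTEC and with 0, 2 and 0 counts in Aβ0/0 cTEC. The groups did not overlap, and the ratio was 444 with a 95% counting interval from 123 to 3674, but the adjusted p was 0.663 with edgeR against 1.19e-06 with DESeq2. The spread among the WT libraries was wide. Wnt11 shares 364 exon bases with Gm8398 on the opposite strand. The next members by p were Sfrp1, with 88.2, 107 and 94.6 CPM in WT and 177, 139 and 126 CPM in Aβ0/0 (log2 fold change -0.57 ± 0.26), and Fzd4, with 10.1, 23.5 and 9.34 CPM in WT and 8.83, 1.13 and 0.0841 CPM in Aβ0/0 (log2 fold change 2.11 ± 1.27). Neither passed. The groups did not overlap for either gene, and they did not overlap in 4 of the 30 members in all, beside 7.7% of all genes. Some marker sums were apart between the genotypes in cTEC too. Thymocyte markers summed to 493 to 1042 CPM in WT and 1185 to 1633 CPM in Aβ0/0, and epithelial markers to 4637 to 6997 and 7257 to 9854 CPM. Endothelium markers summed to 65.5 to 148 CPM in WT and 37.3 to 59.6 CPM in Aβ0/0. The sums of the other marker lists overlapped. Their part in these differences was not tested.

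Whether the genotype effect differed between mTEC and cTEC was tested as an interaction over all 12 libraries. No member passed in edgeR (0 of 39, beside 0.0103% of all genes, 0.00514% in each direction), 7 had an unadjusted p under 0.05, and DESeq2 called 2, Wnt8b and Wnt11. For Wnt1, Wnt2b, Wnt3 and Wnt7a, which had no count in whole groups, the SE of the interaction ranged from 3084 to 19391 on the log2 scale. The test could not decide for these genes, and nothing is read from their not passing. Wnt8b had the smallest p (unadjusted p = 0.000464, adjusted p = 0.266, edgeR). Its counts were 260, 219 and 246 in WT mTEC and 2, 0 and 0 in Aβ0/0 mTEC, but 0, 0 and 0 in WT cTEC and 0, 124 and 108 in Aβ0/0 cTEC. WT libraries were thus the higher ones in mTEC, while in cTEC only Aβ0/0 replicates 2 and 3 had counts. Wnt9b followed (adjusted p = 0.39), with 4, 0 and 0 counts in Aβ0/0 cTEC, and then Wnt11 (adjusted p = 0.456).

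The other genes of the pathway were taken from 7 lists with 110 genes that are not members. In WT, 38 of the 104 tested differed between subsets, 16 higher in mTEC and 22 higher in cTEC. In Aβ0/0 mice 8 of 90 differed, 1 higher in mTEC and 7 higher in cTEC, and between genotypes in mTEC 6 of 102 differed, 5 higher in WT and 1 higher in Aβ0/0. Over all genes the shares were 26.8% in WT (18.0% higher in mTEC, 8.81% higher in cTEC), 5.6% in Aβ0/0 and 5.66% between genotypes in mTEC, so that the 6 of 102 are near the share of all genes. All 6 were lost with the replicate number as a block and without any 1 WT mTEC library, where 0 genes passed over the whole transcriptome. No listed gene passed between genotypes in cTEC (0 of 91 in edgeR, 1 with an unadjusted p under 0.05) or in the interaction (0 of 104, 9 with an unadjusted p under 0.05). The median log2 fold change of the listed genes tested was -0.18, -0.07 and -0.24 in the first 3 comparisons, beside 0.06, 0.03 and 0.00257 over all genes.

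Of 9 genes of Wnt secretion and extracellular handling tested in WT, 6 passed and all 6 were higher in cTEC, beside 8.81% of all genes, with a list median of -1.50 on the log2 scale. The other 3 did not pass, and 2 of them had a positive fold change. Wls, the carrier that brings lipidated Wnt to the cell surface, was at 513, 717 and 499 CPM in WT cTEC and 154, 199.8 and 237 CPM in WT mTEC (log2 fold change -1.52 ± 0.26, adjusted p = 0.00487, edgeR). The glypicans Gpc4 and Gpc6, cell-surface proteoglycans, differed by -2.34 ± 0.38 and -1.72 ± 0.39 on the log2 scale. The fibroblast marker sum, in cTEC mostly Dcn, was 2650 to 3309 CPM in WT cTEC and 266 to 364 CPM in WT mTEC. The part of fibroblast RNA in this list was not tested. In Aβ0/0 mice Wls (-1.19 ± 0.26), Gpc3 (-3.64 ± 0.51) and Gpc4 (-1.75 ± 0.36) were likewise higher in cTEC. Sulf1, a sulfatase that edits heparan sulfate, was the listed gene higher in Aβ0/0 mTEC, at 179, 191 and 204 CPM against 66.6, 70.1 and 93.4 CPM in WT (log2 fold change of WT over Aβ0/0 -1.31 ± 0.19, adjusted p = 0.0352).

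Of the secreted and membrane antagonists, 6 of 13 tested were higher in WT mTEC, beside 18.0% of all genes, and 1, Sfrp4, was higher in WT cTEC (log2 fold change -2.46 ± 0.72). Of the 6, all but Kremen2 (Sost, Sfrp5, Dkk1, Dkkl1 and Frzb) had at most 6 counts in any WT cTEC library and passed the filter on low counts through WT mTEC alone, so that nothing is read from their number. In Aβ0/0 1 of 6 tested passed. Kremen2, a Dickkopf receptor, was higher in mTEC in WT (3.66 ± 0.37, adjusted p = 0.000684, edgeR) and in Aβ0/0 (3.65 ± 0.47, adjusted p = 0.00705). Sfrp5 was at 27.7, 22.2 and 17.2 CPM in WT mTEC and at 0.210, 0 and 0.0383 CPM in WT cTEC, and Dkk1 at 10.8, 2.93 and 9.18 CPM and 0.126, 0.0937 and 0.230 CPM, with adjusted p-values of 0.00132 and 0.0038. Sost, the gene of sclerostin from bone, had 163, 117 and 103 counts in WT mTEC and 0 in the other 9 libraries, and Dkk2 had 181, 229 and 239 counts in WT mTEC and 7, 6 and 10 in Aβ0/0 mTEC. These last 2 were the antagonists called between genotypes in mTEC (adjusted p = 0.0352 for both).

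In the list of the R-spondin module and of receptors outside the Frizzled family, 3 of 12 were higher in WT mTEC and 5 higher in WT cTEC, beside 18.0% and 8.81% of all genes. The 3 were Rspo2, Rspo3 and Rspo4, which had no count in WT cTEC and passed the filter on low counts through WT mTEC. R-spondins are secreted proteins that raise Wnt receptor levels by way of Lgr receptors. Rspo3 had 76, 69 and 43 counts and Rspo4 had 55, 37 and 66 counts in WT mTEC, and both were at 0 in the other 9 libraries, so that they passed between the subsets in WT (adjusted p = 0.00614 and 0.0064, edgeR) and between genotypes in mTEC (adjusted p = 0.0352 for both). The member Rspo1, with 128, 66 and 142 counts in WT mTEC, 25, 32 and 0 in WT cTEC and 64, 1 and 0 in Aβ0/0 mTEC, passed in neither (adjusted p = 0.189 and 0.696). The receptor tyrosine kinases Ror1 and Ror2, which bind Wnt5a, were higher in WT cTEC (log2 fold change -2.36 ± 0.33 and -2.85 ± 0.48), and Ryk was higher in cTEC of both genotypes (-1.13 ± 0.25 in WT, -1.55 ± 0.28 in Aβ0/0).

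In the intracellular lists the share called was near the 26.8% of all genes. Of 23 genes of the cytoplasm and the destruction complex 5 passed in WT, with the feedback inhibitors Nkd2 higher in mTEC (2.65 ± 0.47) and Nkd1 (-2.70 ± 0.53) and Dact2 (-2.96 ± 0.36) higher in cTEC. Of 17 nuclear partners 4 passed, with Ctnnbip1, which blocks β-catenin from TCF factors, higher in mTEC (1.92 ± 0.25) and Pygo1 (-1.75 ± 0.30) and Ep300 (-1.04 ± 0.20) higher in cTEC. Tcf7, the TCF factor of thymocytes and itself among the thymocyte markers, was higher in cTEC in Aβ0/0 mice (-3.42 ± 0.75, adjusted p = 0.0416, edgeR). It was at 290.0, 267 and 251 CPM in Aβ0/0 cTEC and 35.6, 3.55 and 36.4 CPM in Aβ0/0 mTEC, while Lck was at 192, 233 and 139 CPM and 13.2, 14.9 and 52.0 CPM. The part of thymocyte RNA in the Tcf7 difference was not tested. None of the 14 genes of planar cell polarity passed in any comparison, with 0 of 14 having an unadjusted p under 0.05 in the WT subsets in edgeR.

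Commonly used target genes of β-catenin did not move together. Of 16 tested in WT, 5 were higher in mTEC and 3 in cTEC, beside 18.0% and 8.81% of all genes. Cdx2 and Gbx2 had no count in WT cTEC and Prox1 had counts in only 1 of its libraries, so that these passed the filter on low counts through WT mTEC. Cdx1, an intestinal transcription factor, was at 266, 289 and 206 CPM in WT mTEC and 1.76, 6.15 and 1.88 CPM in WT cTEC (adjusted p = 0.000476, edgeR), and Cdx2 was at least 40.2-fold higher in WT mTEC. Tnfrsf19 (-4.06 ± 0.47) and Myc (-1.21 ± 0.22) were higher in WT cTEC, and Myc also in Aβ0/0 cTEC (-1.58 ± 0.37, adjusted p = 0.0496). Gbx2 had 29, 20 and 20 counts in WT mTEC and 0 in the other 9 libraries.

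**Figure D5:**
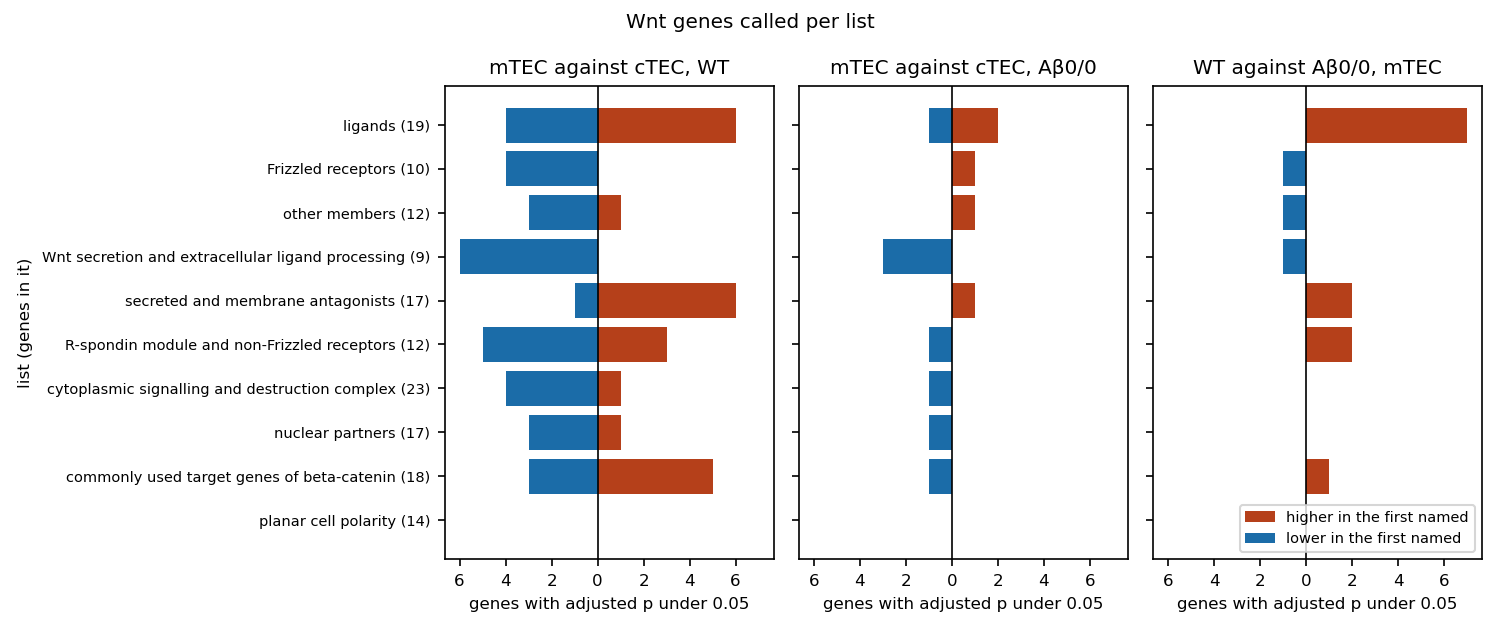
Number of genes with an adjusted p under 0.05 in edgeR for the members (ligands, Frizzled receptors, other members) and for the 7 lists of other pathway genes, to the right where higher in the first-named group and to the left where lower, in 3 comparisons. The secretion list points to the left (6 genes) and the antagonist list mostly to the right (6 genes against 1) for mTEC against cTEC in WT.

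The remaining members varied without a call in any comparison. Wnt7b stood at 13.9 to 51.7 CPM over all libraries, and Wnt5a and Wnt5b, the main noncanonical ligands, at 1.04 to 33.0 and 0.0349 to 12.9 CPM. Fzd1 and Fzd6 lay at 8.71 to 81.5 and 17.9 to 66.1 CPM, and Fzd5 and Fzd10 at 0.189 to 9.68 and 0.383 to 11.5 CPM. Lgr5, the R-spondin receptor of stem cells, ranged from 0.312 to 13.3 CPM, the highest value being 1 Aβ0/0 mTEC library. Wnt8a, Wnt16 and Fzd9 had at most 22, 9 and 53 counts in a library, and 8, 9 and 8 libraries at 0.

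Reads of 9 members could also come from another gene, since their exons share bases with it and the kit does not mark strand. The largest shared stretches were 1233 bases of Fzd5 with Gm38058, 1208 bases of Lef1 with Gm43352 and 759 bases of Ctnnb1 with Ulk4. Not all counts were assigned to coding transcripts. A transcript of Ctnnb1 with a retained intron held 11.2% to 78.02% of its counts in single libraries, with the highest values in replicate 3 of WT cTEC (78.02%) and replicate 2 of Aβ0/0 cTEC (52.9%), against 11.2% to 15.04% in the other cTEC libraries. An Lrp5 transcript subject to nonsense-mediated decay held 24.6% or more in every library, with a wide spread within each group. Wnt4, Sfrp1 and Fzd2 were counted from a single coding transcript each.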

How the data were processed

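Polyadenylated RNA of the 12 sorted samples was amplified with the SMART-Seq v4 kit, which does not mark strand, and sequenced on a HiSeq. Per the labels, the processing notes name bcl2fastq 2.20.0, Trim Galore, kallisto 0.43, DESeq2 and the mm10 build. The deposited estimated counts and TPM per transcript were made by the authors with kallisto, and the deposited log2 values are regularized log2 counts of all libraries, which here gave the gene symbols and an alternative. Transcripts were matched to GENCODE M21 (0.450% to 0.512% of the counts were unmatched and left out) and estimated counts were summed per gene and rounded, since the count test needs whole numbers.

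The main test was the robust quasi-likelihood fit in edgeR 4.0.16 (TMM, filterByExpr; R 4.3.3) on the 6 libraries of a comparison, and on all 12 for the interaction, with Benjamini-Hochberg adjustment over all genes tested and a threshold of 0.05. The code was tested on simulated data. DESeq2 1.42.0, limma 3.58.1 on the log2 values, RLE scaling, other filters, a replicate block and leaving out each library were alternatives. Tables used Python 3.11.15 with scipy 1.17.1. Each library is a pool of mice, and p-values measure the spread between pools. Intervals and floors (3 counts) cover counting error only.

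The study's sorting records tie cTEC and mTEC of one genotype and replicate number to one pool. The correlations of their deviations from the group means were 0.252, 0.0234 and 0.114 in WT and 0.266, 0.116 and 0.0426 in Aβ0/0. In WT, mTEC replicate 2 correlated better with cTEC replicate 3 (0.118) than with its own number. Blocked values are given where they change a call. The members and gene lists were chosen with earlier results of these data known. Members called in a comparison, the 3 members with the smallest p in each genotype comparison and in the interaction, and the 5 members highest in TPM were described in full, and of other pathway genes at most 3 called per list and comparison. Ranges, genes called at 0 elsewhere and Sfrp4 were named beyond this rule after their values were seen. The marker lists of endothelium, of dendritic, macrophage and B cells and of tuft cells were also summed, with 26.5 to 148, 85.3 to 673 and 30.8 to 2021 CPM over the libraries.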

Additional observations from a re-analysis of the deposited data

How the results depend on the processing

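The number of members called depended on the processing. Between genotypes in mTEC its main value of 9 fell to 0 without a filter, with a mean of at least 10 counts, in a fit on all 12 libraries and with the replicate block. It was 5 with limma on the log2 values. Leaving out 1 library gave 0 to 13. For mTEC against cTEC in Aβ0/0, where 5 were called, it was 10 with DESeq2, 8 in the fit on all 12 libraries, 3 with the replicate block, 2 with limma on the log2 values, and 1 to 5 when 1 library was left out. For mTEC against cTEC in WT, where 18 were called, limma on the log2 values gave 11, the fit on all 12 libraries 12, DESeq2 24, and leaving out 1 library gave 13 to 27. Between genotypes in cTEC, 0 was called except 1 with DESeq2, and in the interaction 0 except 2 with DESeq2, with 0 to 0 when 1 library was left out in both. Over all genes the calls between genotypes in mTEC numbered 1054 as reported, 27 without a filter, 11 with a mean of 10 counts, 20 on all 12 libraries, 0 with the replicate block, 2440 with DESeq2, 0 without any 1 WT mTEC library and 2377 without replicate 1 of Aβ0/0 mTEC, and the cause was not tested.

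No called member, and none of the 3 with the smallest p in the cTEC genotype comparison and in the interaction, changed direction under an alternative run. The other members were not followed one by one, and the number with a positive fold change between genotypes in mTEC went from 18 to 21 of 37 with the replicate block. The replicate numbers pair the subsets of a genotype, which shared mice. The sorting record lists both genotypes under each number without saying that they were sorted together, and blocked values are therefore given for the genotype comparisons too. Between genotypes the correlations were 0.289, 0.114 and 0.0622 in mTEC and 0.275, -0.0839 and 0.0317 in cTEC. In both subsets not every library correlated best with its own number. The pool as a block left the interaction at 0. Ligands with under 5 counts in most libraries could not be compared in cTEC at this depth.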
